A study of Mus musculus with 10 samples.

Results

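The kinetochore is the protein assembly that forms on each centromere and holds a chromosome to the spindle in mitosis. The genes described here encode the proteins of that assembly: the centromeric histone, the constitutive centromere network that reads it, the outer kinetochore that grips microtubules, the spindle checkpoint, the chromosomal passenger complex and the shugoshins. They were picked by name from a list of 42 gene symbols; the rule uses no measured value, but the list was drawn up with earlier results of these data known. Of these, 41 were found among 23535 gene loci with numeric values, and 40 were tested among 10956 loci whose mean over the libraries was at least 1 FPKM (fragments per kilobase of transcript length and per library total). Cenpu was not found under that symbol. Ska1 had a mean under 1 FPKM and was not tested, and its log2 difference comes from a fit with no filter on low values.

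The study profiled liver RNA of mice at postnatal day 90, on a C57/B6 and 129 mix, 40 h after partial hepatectomy, an operation that removes part of the liver. All animals carried the floxed allele Arid1a Fl/Fl. Those without Cre are called WT and those of genotype Arid1a Fl/Fl; Alb-cre are called KO, with 3 frozen-tissue libraries in each group. The other 4 samples of the series, 2 WT and 2 KO livers taken ahead of surgery, were not analysed here. The control is therefore WT liver at the same hour and no response to surgery was computed. The protein Arid1a belongs to SWI/SNF, a complex that moves nucleosomes. Alb-cre expresses Cre recombinase in hepatocytes, and which other cells of the liver keep the floxed gene was not measured. The labels do not say that the libraries are separate mice, and p-values then measure only the spread between these libraries.

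In a resting liver most hepatocytes do not divide. After hepatectomy they re-enter the cell cycle, copy their DNA and divide. Many kinetochore genes are transcribed late in that cycle, from S phase into mitosis, under the control of complexes that bind the cell cycle genes homology region (CHR) of their promoters. Their RNA level in tissue is therefore widely read beside proliferation markers.

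Arid1a itself was measured at 8.68, 8.45 and 8.49 FPKM in WT replicates 1, 2 and 3 and at 4.41, 5.57 and 6.15 FPKM in KO replicates 1, 2 and 3. All KO libraries lay below all WT libraries, with a log2 difference of -0.59 (SE 0.15, adjusted p = 0.207). The summed FPKM ran from 409142 to 495209 per library. Absolute depth is unknown, and the steps between low values put the depth of the libraries at 0.844 to 1.21 times that of WT replicate 1. Hepatocyte markers summed to 34350 to 40540 FPKM in WT and 31050 to 40400 FPKM in KO. Summed levels overlapped between the groups in each of 9 marker lists for liver and blood cell types. In the 7 lists with tested genes, 2 to 8 each, 0 passed by limma, and the T and NK cell and the B and plasma cell lists had no gene above the filter. The macrophage list (7 genes, all above 0 FPKM in every library) was highest in KO replicate 1, at 115 FPKM against 63.8 to 86.0 in WT and 64.9 and 68.8 in the other KO libraries. T and NK cell markers (6 genes) summed to 0.678 to 1.14 FPKM in WT and 0.234 to 1.41 FPKM in KO, and each was at 0 in at least 1 library. The part of these cell types in the values of the kinetochore genes was not tested.

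Kinetochore genes were most abundant in KO replicates 1 and 3, and KO replicate 2 lay among or below the WT libraries for most of them. KO replicate 3 was the highest library for 39 of 41 genes, and KO replicates 1 and 3 were the top pair for 37. Within WT, replicate 3 was the highest for 40 of 41, the exception being Cenpc1. KO replicate 2 was above all WT libraries for 3 genes, within their range for 29 and below it for 9. With each gene set to 100% in its highest library, the median over the 41 genes was 8.07%, 6.98% and 29.6% in WT replicates 1, 2 and 3. The same median was 72.6%, 13.2% and 100% in KO replicates 1, 2 and 3. In bulk tissue, fewer cells of a type and less RNA per cell cannot be told apart.

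**Figure D1:**
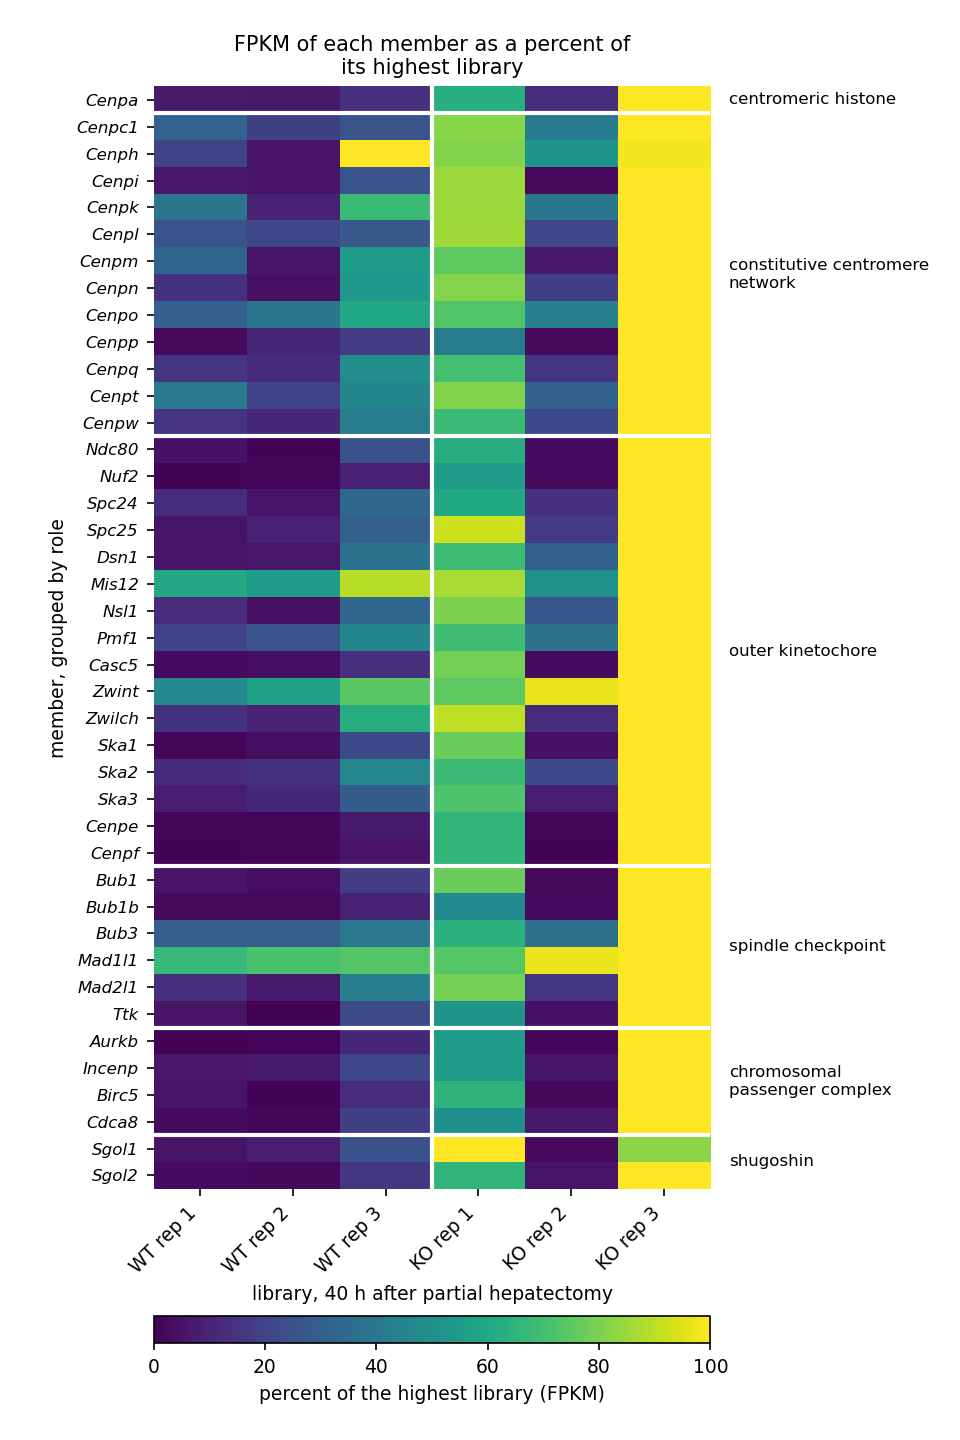
Each row is one of the 41 genes, grouped by role, and each column is one library at 40 h; colour gives FPKM as a percent of the gene's highest library, from 0 to 100. KO replicates 1 and 3 hold the highest values for 37 genes, WT replicate 3 is the highest WT library for 40, and KO replicate 2 is dark for most.

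No member passed the test between genotypes. By limma on log2(FPKM + 1), 0 of 40 had a Benjamini-Hochberg adjusted p under 0.05, against 0.119% of all tested loci in either direction and 0.0183% higher in KO. Adjusted p-values ran from 0.209 for Cenpc1 to 0.773 for Mis12. At an unadjusted p under 0.05 there were 8 members, all with higher means in KO: Cenpa, Cenpc1, Dsn1, Nsl1, Pmf1, Zwint, Spc25 and Bub3. That is 20% of 40, beside 11.2% of all tested loci. All KO libraries exceeded all WT libraries for 3 members (Cenpc1, Zwint and Mad1l1), or 7.5%, under the 16.7% of all tested loci. After rescaling the libraries by the median of ratios, only Cenpc1 of these 3 kept separate groups, and 8.0% of loci did.

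The log2 differences (KO minus WT) were above 0 for all 41 genes, the untested Ska1 included, as they were for 69.7% of all tested loci. Their median was 1.13 over the 40 tested members and 0.15 over all tested loci. Of the 40, 14 passed the filter only through the KO libraries. Over the 26 with a WT mean of at least 1 FPKM the median was 1.05, beside 0.13 for the 10613 loci that met the same condition. Values on the log2(FPKM + 1) scale understate the change of genes with low FPKM.

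Leaving out KO replicate 2 changed the calls. Without it, 13 of 40 members (32.5%) passed at an adjusted p under 0.05, all higher in KO, beside 1.8% of tested loci. KO replicate 2 was the lowest KO library for 39 of the 41 genes. Leaving it out therefore raises their differences in advance of any test, and these calls are not support for a difference. Of the 26 members with a WT mean of at least 1 FPKM, only 3 (11.5%) passed: Cenpa, Cenpc1 and Cenpl. Of the 14 above the filter only through the KO libraries, 10 (71.4%) passed. These were Cenpi, Nuf2, Casc5, Cenpe, Cenpf, Bub1, Bub1b, Aurkb, Sgol1 and Sgol2. The 1.8% was not matched on WT level. Leaving out any other single library gave 0 called members by limma. At an unadjusted p under 0.05 there were then 1 to 15 members, beside 940 to 1599 of 10908 to 10985 tested loci.

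**Figure D2:**
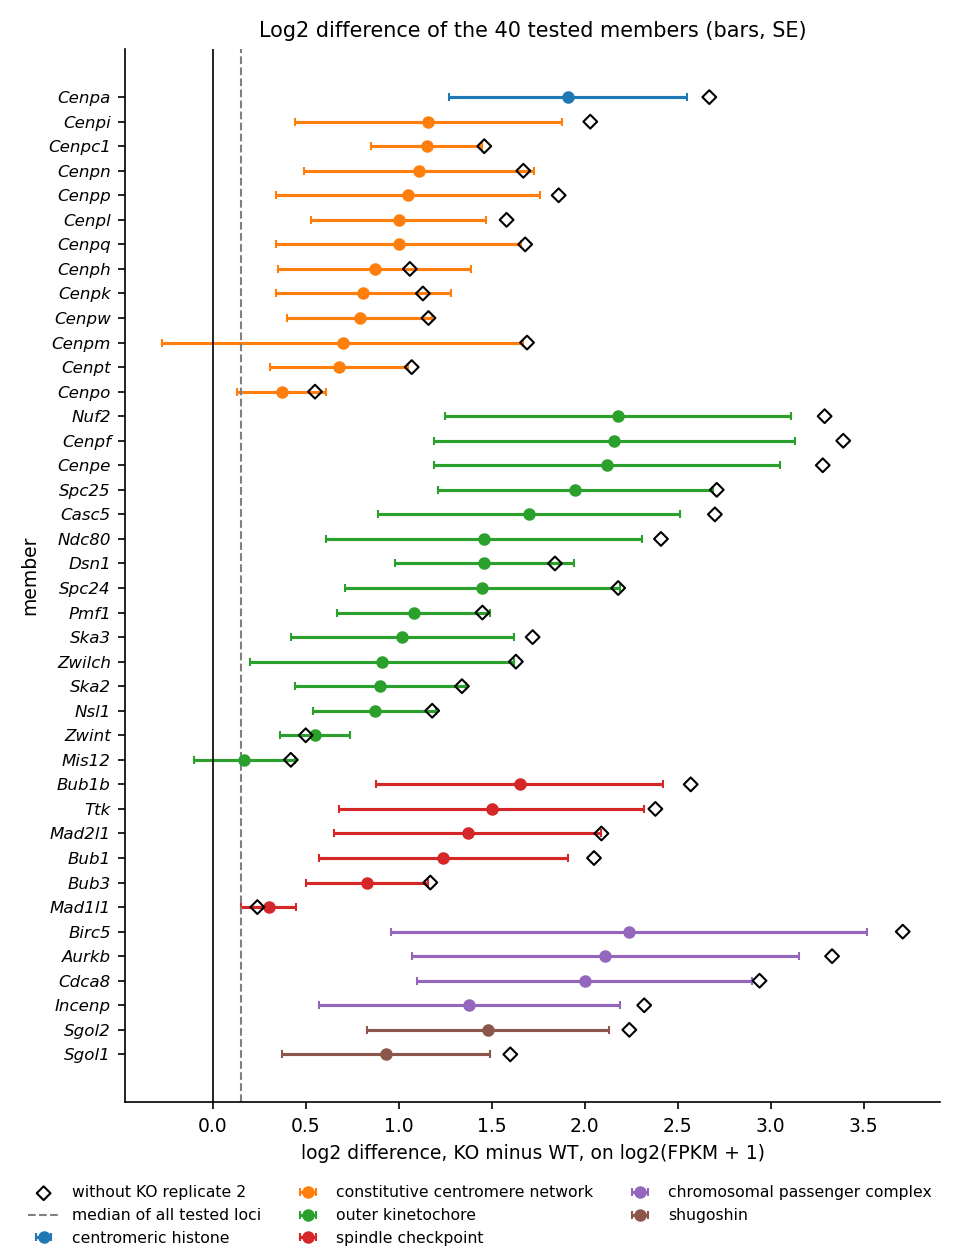
Points show the log2 difference, KO minus WT, of the 40 tested genes with bars of 1 SE, coloured by role; open diamonds show the value without KO replicate 2, and the dashed line is the median of all tested loci at 0.15. All 40 points lie above 0, and the chromosomal passenger genes lie between 1.38 and 2.24.

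Across the 6 libraries the genes followed each other. Over 820 pairs of members the median Pearson correlation of log2(FPKM + 1) was 0.938 and the median Spearman correlation 0.829. These are descriptions over 6 shared libraries, in which KO replicates 1 and 3 carry most of the spread. The same medians were not computed for other loci, so they cannot be called particular to these genes. Mad1l1 (median r of 0.393 with the other members), Zwint (0.567) and Cenph (0.749) followed the rest least.

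Promoter sequences were read for the genes, since so many of them varied together. RefSeq (GRCm38.p6) gave a window of 250 bases before to 50 bases after the start for 35 of the 41, 3 of them under a newer symbol (Knl1 for Casc5, Sgo1 for Sgol1, Sgo2a for Sgol2). Spc24, Nsl1, Zwilch, Ska1, Aurkb and Incenp had no entry. The CHR letters searched were TTTGAA and TTCGAA, and the CCAAT box, which NF-Y binds, was searched as CCAAT, both on either strand. Cenpa (chr5:30666636-30666935, plus strand), Cenpf (chr1:189688037-189688336, minus strand), Bub1 (chr2:127831810-127832109, minus strand) and Cdca8 (chr4:124936868-124937167, minus strand) are shown as examples of the 14 members that hold both motifs. Birc5 (chr11:117848987-117849286, plus strand) is shown because it had the largest log2 difference and holds neither, and Mad1l1 (chr5:140321503-140321802, minus strand) because it varied least and holds neither. Each is written 5′ to 3′ on the strand of the gene, with CHR letters and CCAAT boxes, the latter read as ATTGG on the other strand, in capitals.
Cenpa: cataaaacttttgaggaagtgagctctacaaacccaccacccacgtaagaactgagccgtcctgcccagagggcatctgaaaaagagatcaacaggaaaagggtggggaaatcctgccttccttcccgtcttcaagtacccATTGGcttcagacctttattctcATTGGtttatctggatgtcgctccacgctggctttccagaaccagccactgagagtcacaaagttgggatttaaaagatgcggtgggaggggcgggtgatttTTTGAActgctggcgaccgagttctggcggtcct
Cenpf: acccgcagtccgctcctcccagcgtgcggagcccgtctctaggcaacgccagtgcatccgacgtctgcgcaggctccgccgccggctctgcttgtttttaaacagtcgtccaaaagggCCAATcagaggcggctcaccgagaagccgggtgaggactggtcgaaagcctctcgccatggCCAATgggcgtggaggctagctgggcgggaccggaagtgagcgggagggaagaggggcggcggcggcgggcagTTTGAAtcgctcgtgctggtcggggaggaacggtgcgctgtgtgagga
Bub1: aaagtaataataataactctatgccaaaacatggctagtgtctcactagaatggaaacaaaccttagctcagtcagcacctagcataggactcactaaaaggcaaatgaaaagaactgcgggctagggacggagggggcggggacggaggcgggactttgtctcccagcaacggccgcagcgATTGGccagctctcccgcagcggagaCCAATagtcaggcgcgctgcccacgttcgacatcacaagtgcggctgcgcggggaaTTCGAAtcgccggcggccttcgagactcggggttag
Cdca8: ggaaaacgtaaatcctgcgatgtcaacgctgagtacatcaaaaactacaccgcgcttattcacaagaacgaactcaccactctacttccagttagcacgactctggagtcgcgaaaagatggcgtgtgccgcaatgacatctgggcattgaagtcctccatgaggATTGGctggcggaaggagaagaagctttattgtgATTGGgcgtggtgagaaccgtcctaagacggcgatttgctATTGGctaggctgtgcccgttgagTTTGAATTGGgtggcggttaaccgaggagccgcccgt
Birc5: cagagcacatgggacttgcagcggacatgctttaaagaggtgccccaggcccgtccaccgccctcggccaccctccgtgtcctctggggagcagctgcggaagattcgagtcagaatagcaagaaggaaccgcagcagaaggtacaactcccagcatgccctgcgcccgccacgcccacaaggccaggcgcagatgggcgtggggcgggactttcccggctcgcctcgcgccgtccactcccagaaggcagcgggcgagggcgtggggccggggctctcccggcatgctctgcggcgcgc
Mad1l1: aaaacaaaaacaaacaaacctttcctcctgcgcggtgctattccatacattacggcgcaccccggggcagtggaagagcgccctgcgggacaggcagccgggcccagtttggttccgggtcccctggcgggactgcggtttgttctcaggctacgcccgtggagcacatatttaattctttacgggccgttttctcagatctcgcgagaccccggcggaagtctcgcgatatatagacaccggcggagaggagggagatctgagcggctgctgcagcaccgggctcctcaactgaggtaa

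In Cenpa, Cenpf and Bub1, 2 CCAAT boxes lie upstream of 1 CHR match that falls just after the start. Cdca8 holds 4 CCAAT boxes, and its CHR match shares 1 base with the last of them. This layout is not general: Cenpl, Pmf1, Bub3, Cenpn, Cenpw and Cenpm also hold both motifs, with the CHR match before the start. A CHR match was present in 17 of 35 members (48.6%), beside 16.7% of 8083 tested genes with a window and 21.7% of all 27025 genes in the table. For the CCAAT box the shares were 68.6% of members (24 of 35), 43.9% of tested genes and 41.1% of all genes. Both motifs together were held by 14 members (40%), 7.18% of tested genes and 8.61% of all genes. An E2F site (TTTCCCGC, TTTGGCGC, TTTCGCGC or TTTGCCGC) was held by 3 members, Cenpl, Dsn1 and Cenpm, or 8.57% beside 4.86% of tested genes. Within the 50 bases after the start, a stretch chosen after the matches were seen, 10 members (28.6%) held a CHR match, beside 2.19% of tested genes: Cenpa, Cenpf, Spc25, Ndc80, Casc5, Bub1, Bub1b, Ttk, Cdca8 and Sgol1. The 17 genes with a CHR match had a median log2 difference of 1.24 (0.70 to 2.16), and the 18 without one a median of 1.02 (0.17 to 2.24), so the ranges overlapped. A match is a description of letters, not of binding, and its absence from this window says nothing of the factor.

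The centromeric histone is the base on which the rest of the assembly is built. Cenpa (chr5:30666902-30674826 on mm10), the histone H3 variant that marks the centromere, was measured at 1.72, 1.69 and 3.43 FPKM in WT and 15.3, 3.19 and 24.3 FPKM in KO replicates 1, 2 and 3. KO replicates 1 and 3 stood above every WT library, and KO replicate 2 lay just under WT replicate 3, so the groups overlapped. The means were 2.28 ± 0.996 FPKM in WT and 14.2 ± 10.6 FPKM in KO (SD, n = 3 each). The log2 difference was 1.91 (SE 0.64, adjusted p = 0.280), and 2.67 (SE 0.30, adjusted p = 0.0184) without KO replicate 2. Its promoter holds the CHR match and the pair of CCAAT boxes marked in the sequence.

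The constitutive centromere network sits on CENP-A nucleosomes throughout the cell cycle. Its 12 measured genes had the lowest median log2 difference of the role groups, 0.94 (0.37 to 1.16). None passed the test, and Cenpc1, Cenpi and Cenpl passed without KO replicate 2, Cenpi with a WT mean under 1 FPKM. In WT replicate 3 they stood at a median of 47.4% of their highest library, beside 32.0% or less in the other roles.

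Cenpc1 (chr5:86012025-86065583) encodes CENP-C, which links the centromeric nucleosome to the outer kinetochore. Its levels were 2.52, 1.51 and 2.06 FPKM in WT and 6.59, 3.31 and 8.03 FPKM in KO. It was the only member whose KO libraries all exceeded all WT libraries both as deposited and after rescaling by the median of ratios, and the only one in which WT replicate 3 was not the highest WT library. Its log2 difference of 1.15 (SE 0.30) had the smallest adjusted p of the set, 0.208, and stayed between 0.93 and 1.46 when any 1 library was left out.

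Cenph, Cenpi, Cenpk and Cenpm encode a 4-protein module that supports CENP-A loading and outer kinetochore assembly. Cenph was at 0.855, 0.214 and 4.18 FPKM in WT and 3.39, 2.16 and 4.10 FPKM in KO, so that WT replicate 3 was the highest library and the groups overlapped (log2 difference 0.87, SE 0.52, adjusted p = 0.445). Cenpi was at 0.451, 0.351 and 1.72 FPKM in WT and 5.63, 0.175 and 6.63 FPKM in KO (log2 difference 1.16, SE 0.72, adjusted p = 0.461). Its KO replicate 2 was the lowest of all 6 libraries, while the other KO libraries were the highest. Cenpk, whose locus overlaps Ppwd1, was at 2.26, 0.576 and 4.01 FPKM in WT and 5.02, 2.33 and 5.90 FPKM in KO (log2 difference 0.81, SE 0.47, adjusted p = 0.428). Cenpm was at 6.73, 1.14 and 11.3 FPKM in WT and 15.6, 1.41 and 20.8 FPKM in KO (log2 difference 0.70, SE 0.97, adjusted p = 0.742). For Cenpm the sign rested on WT replicate 2, the lowest library: without it the log2 difference was -0.03.

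Cenpl and Cenpn encode partners that contact the CENP-A nucleosome. Cenpl was at 2.79, 2.37 and 3.07 FPKM in WT and 9.39, 2.33 and 10.9 FPKM in KO (log2 difference 1.0, SE 0.47, adjusted p = 0.357). Its WT libraries lay close together, with KO replicate 2 just under them and KO replicates 1 and 3 well above. Cenpn was at 1.02, 0.330 and 3.85 FPKM in WT and 5.85, 1.32 and 7.19 FPKM in KO (log2 difference 1.11, SE 0.62, adjusted p = 0.418), with WT replicate 3 and both high KO libraries above the remaining ones.

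Cenpo, Cenpp and Cenpq belong to a complex that helps align chromosomes. Cenpo, whose locus overlaps Adcy3 and Ptrhd1, was at 0.598, 0.767 and 1.17 FPKM in WT and 1.42, 0.852 and 1.95 FPKM in KO (log2 difference 0.37, SE 0.24, adjusted p = 0.475). Cenpp, whose locus overlaps Aspn, Ecm2, Ogn and Omd, was at 0.208, 0.868 and 1.47 FPKM in WT and 3.46, 0.202 and 8.24 FPKM in KO (log2 difference 1.05, SE 0.71, adjusted p = 0.493). The labels and headers do not say how the authors divided reads at overlapping loci or whether they used strand, so these values are uncertain. Cenpq was at 2.43, 1.97 and 7.88 FPKM in WT and 11.2, 2.5 and 16.0 FPKM in KO (log2 difference 1.0, SE 0.66, adjusted p = 0.484), with KO replicate 2 beside WT replicates 1 and 2. Cenpu, of the same complex, has the RefSeq synonym Mlf1ip. That locus, outside the list, was at 0.743, 0.163 and 1.94 FPKM in WT and 2.20, 0.266 and 2.44 FPKM in KO (log2 difference 0.41, SE 0.49, adjusted p = 0.700), and its groups overlapped.

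Cenpt and Cenpw encode histone-fold proteins that carry a second link to the outer kinetochore. Cenpt was at 2.55, 1.27 and 2.82 FPKM in WT and 5.01, 1.93 and 6.18 FPKM in KO (log2 difference 0.68, SE 0.37, adjusted p = 0.410). Cenpw was at 0.541, 0.395 and 1.46 FPKM in WT and 2.37, 0.789 and 3.49 FPKM in KO (log2 difference 0.79, SE 0.39, adjusted p = 0.378). In both, KO replicate 2 lay within the WT range.

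Outer kinetochore genes, 16 measured and 15 tested, ranged more widely. Their log2 differences ran from 0.17 for Mis12 to 2.18 for Nuf2. The median was 1.27 over all 16, with Ska1 at 0.88 from a fit with no filter on low values. None passed the test and 5 had an unadjusted p under 0.05. Without KO replicate 2, 4 passed (Nuf2, Casc5, Cenpe and Cenpf), all with WT means under 1 FPKM. FPKM in KO replicate 1 was a median of 2.44 times that in WT replicate 3 (0.977 to 12.6).

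The Ndc80 complex is the main microtubule grip of the kinetochore. Ndc80 (chr17:71496100-71526857) was at 0.554, 0.111 and 2.83 FPKM in WT and 7.05, 0.388 and 11.3 FPKM in KO (log2 difference 1.46, SE 0.85, adjusted p = 0.437). KO replicate 2 stood between WT replicates 1 and 2, far from the other KO libraries. Nuf2 (chr1:169497934-169531464), its partner at the microtubule end, was at 0.161, 0.302 and 1.83 FPKM in WT and 11.1, 0.586 and 20.05 FPKM in KO (log2 difference 2.18, SE 0.93, adjusted p = 0.332). KO replicates 1 and 3 were 6.03 and 10.9 times WT replicate 3. Spc24, at the centromere end of the complex, was at 3.64, 1.51 and 9.35 FPKM in WT and 16.7, 3.94 and 27.5 FPKM in KO (log2 difference 1.45, SE 0.74, adjusted p = 0.384). Spc25, its partner, was at 2.06, 3.35 and 11.0 FPKM in WT and 33.1, 6.34 and 35.7 FPKM in KO (log2 difference 1.95, SE 0.74, adjusted p = 0.309). KO replicate 2 of Spc25 exceeded WT replicates 1 and 2 and stayed under WT replicate 3, so the groups overlapped.

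The Mis12 complex joins the inner centromere to the Ndc80 complex and to Knl1. Mis12 (chr11:71019611-71027134) was at 5.56, 5.04 and 8.19 FPKM in WT and 8.0, 4.70 and 9.19 FPKM in KO (log2 difference 0.17, SE 0.27, adjusted p = 0.772). Its libraries differed by 1.96 times at most, and KO replicate 2 was the lowest. Dsn1 (chr2:156995062-157007075) was at 0.468, 0.497 and 2.79 FPKM in WT and 5.18, 2.32 and 7.5 FPKM in KO (log2 difference 1.46, SE 0.48, adjusted p = 0.275). Only WT replicate 3 reached into its KO range. Nsl1 was at 0.301, 0.107 and 0.783 FPKM in WT and 1.89, 0.632 and 2.35 FPKM in KO (log2 difference 0.87, SE 0.33, adjusted p = 0.309), and Pmf1 followed the same order of high libraries. Pmf1 was at 7.30, 9.27 and 16.6 FPKM in WT and 25.2, 13.5 and 36.2 FPKM in KO (log2 difference 1.08, SE 0.41, adjusted p = 0.309). So of 4 subunits of one complex, 3 had log2 differences of 0.87 to 1.46 and Mis12 had 0.17. Whether Mis12 differed from its partners was not tested.

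Casc5 encodes Knl1, the scaffold on which the Bub proteins dock, and Zwint binds it. Casc5 (chr2:119047119-119104121) was at 0.308, 0.397 and 1.52 FPKM in WT and 8.74, 0.354 and 11.1 FPKM in KO (log2 difference 1.70, SE 0.81, adjusted p = 0.367). KO replicates 1 and 3 were 5.75 and 7.28 times WT replicate 3, and KO replicate 2 lay with WT replicates 1 and 2. Zwint (chr10:72654895-72669789) was at 5.19, 6.33 and 8.19 FPKM in WT and 8.29, 10.7 and 11.0 FPKM in KO (log2 difference 0.55, SE 0.19, adjusted p = 0.292). All its KO libraries exceeded all WT libraries as deposited, by 1.01 times at the closest, and KO replicate 2 was among its 2 highest. Zwilch, of the complex that brings dynein to kinetochores, overlaps the locus Lctl and was at 1.30, 0.858 and 5.49 FPKM in WT and 7.94, 1.10 and 8.80 FPKM in KO (log2 difference 0.91, SE 0.71, adjusted p = 0.545).

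Ska proteins help the kinetochore follow shortening microtubules. Ska1, not tested, was at 0.0368, 0.0922 and 0.550 FPKM in WT and 1.87, 0.107 and 2.43 FPKM in KO. Ska2, whose locus overlaps the microRNA gene Mir301, was at 0.696, 0.838 and 2.63 FPKM in WT and 3.85, 1.28 and 5.65 FPKM in KO (log2 difference 0.90, SE 0.46, adjusted p = 0.385). Ska3 was at 0.516, 0.707 and 1.89 FPKM in WT and 4.65, 0.502 and 6.4 FPKM in KO (log2 difference 1.02, SE 0.60, adjusted p = 0.440). In all of them WT replicate 3 was the highest WT library and KO replicates 1 and 3 lay above it.

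The greatest contrasts between libraries among the outer kinetochore genes, set against WT replicate 3, were in Cenpe and Cenpf. Cenpe (chr3:135212563-135273540), a kinesin motor that moves chromosomes to the spindle equator, was at 0.233, 0.213 and 1.17 FPKM in WT and 10.9, 0.294 and 16.4 FPKM in KO (log2 difference 2.12, SE 0.93, adjusted p = 0.339). KO replicates 1 and 3 were 9.31 and 14.1 times WT replicate 3, and KO replicate 2 was 0.252 times it. Cenpf (chr1:189640614-189688086), a large coiled-coil protein of the outermost layer, was at 0.186, 0.257 and 0.897 FPKM in WT and 11.3, 0.15 and 17.0 FPKM in KO (log2 difference 2.16, SE 0.97, adjusted p = 0.346). Its KO replicate 2 was the lowest of the 6 libraries and its KO replicate 3 the highest, 114 times apart. Without KO replicate 2 the log2 differences were 3.28 for Cenpe (adjusted p = 0.0155) and 3.39 for Cenpf (adjusted p = 0.0153). Both had WT means under 1 FPKM (0.537 and 0.447) and passed the filter only through the KO libraries.

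**Figure D3:**
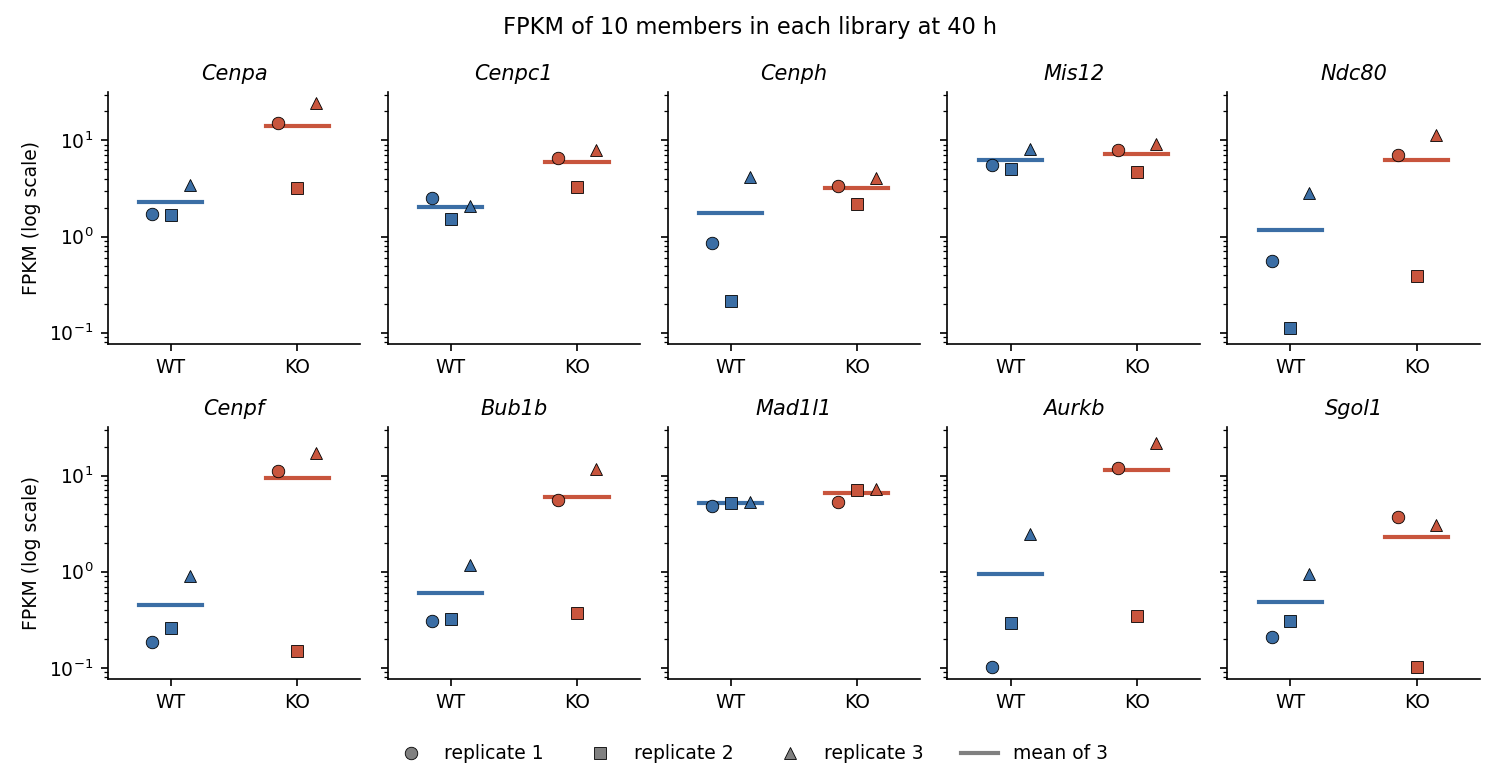
FPKM on a log axis of 10 genes in each library at 40 h, with WT in blue and KO in red, symbols for replicates 1 to 3 and a bar at the mean of 3. In Cenpf, Bub1b and Aurkb the KO replicates 1 and 3 stand apart from all others, while the libraries of Mad1l1 and Mis12 differ by less than 2-fold.

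Spindle checkpoint proteins hold back anaphase until every kinetochore is attached. The 6 genes had log2 differences of 0.30 to 1.65 (median 1.31). None passed the test, and Bub1 and Bub1b, both with WT means under 1 FPKM, passed without KO replicate 2. Bub1 (chr2:127800200-127831859), a kinase that recruits the other checkpoint proteins, was at 0.321, 0.214 and 1.08 FPKM in WT and 4.55, 0.146 and 5.91 FPKM in KO (log2 difference 1.24, SE 0.67, adjusted p = 0.404). KO replicate 2 was its lowest library. Bub1b (chr2:118598211-118641592), which encodes the BubR1 part of the checkpoint effector complex, was at 0.306, 0.319 and 1.16 FPKM in WT and 5.61, 0.372 and 11.8 FPKM in KO (log2 difference 1.65, SE 0.77, adjusted p = 0.354). KO replicate 3 was 10.2 times WT replicate 3, and KO replicate 2 lay just above WT replicates 1 and 2.

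Bub3, the small partner of both, was more abundant. It was at 6.64, 6.74 and 8.88 FPKM in WT and 14.2, 8.22 and 22.2 FPKM in KO (log2 difference 0.83, SE 0.33, adjusted p = 0.316), and KO replicate 2 lay within the WT range. Ttk, the kinase Mps1 that starts checkpoint signalling, was at 0.655, 0.0589 and 2.82 FPKM in WT and 6.32, 0.583 and 12.2 FPKM in KO (log2 difference 1.5, SE 0.82, adjusted p = 0.409). Its lowest library, WT replicate 2, and its highest, KO replicate 3, were 207 times apart. Mad2l1, which encodes the inhibitor Mad2, was at 3.03, 1.60 and 9.26 FPKM in WT and 17.1, 3.51 and 21.6 FPKM in KO (log2 difference 1.37, SE 0.72, adjusted p = 0.398). Mad1l1 (chr5:140008689-140321552), the platform that presents Mad2, was at 4.87, 5.18 and 5.33 FPKM in WT and 5.36, 7.06 and 7.27 FPKM in KO (log2 difference 0.30, SE 0.15, adjusted p = 0.384). All KO libraries of Mad1l1 exceeded all WT libraries as deposited, but its highest library was only 1.49 times its lowest. Mad1l1 and its binding partner Mad2l1 thus differed in library order: KO replicate 2 was the second highest library for the former and under WT replicate 3 for the latter.

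The chromosomal passenger complex corrects wrong attachments through the kinase Aurora B. Its 4 genes had the highest median log2 difference of the role groups with more than 1 gene, 2.05 (1.38 to 2.24). Their errors were also large: none passed the test and none had an unadjusted p under 0.05. Aurkb, with a WT mean under 1 FPKM, passed without KO replicate 2. Aurkb (chr11:69045643-69051662), the kinase, was at 0.101, 0.295 and 2.47 FPKM in WT and 11.9, 0.343 and 21.8 FPKM in KO (log2 difference 2.11, SE 1.04, adjusted p = 0.378). Its lowest and highest libraries were 216 times apart, with KO replicate 2 close to WT replicate 2. Incenp (chr19:9872297-9899533), the scaffold of the complex, was at 1.38, 1.42 and 4.26 FPKM in WT and 10.7, 1.20 and 19.6 FPKM in KO (log2 difference 1.38, SE 0.81, adjusted p = 0.436). KO replicate 2 was its lowest library. Birc5 (chr11:117849237-117855743), which encodes survivin and reached the highest FPKM of all members, was at 3.34, 0.480 and 7.63 FPKM in WT and 39.5, 1.33 and 60.5 FPKM in KO (log2 difference 2.24, SE 1.28, adjusted p = 0.425). Means were 3.82 ± 3.60 FPKM in WT and 33.8 ± 30.0 FPKM in KO (SD, n = 3 each), so the spread within KO was close to the size of the difference. Cdca8 (chr4:124918465-124936917), which encodes borealin, was at 0.747, 0.363 and 4.54 FPKM in WT and 12.1, 1.57 and 24.1 FPKM in KO (log2 difference 2.0, SE 0.90, adjusted p = 0.344). In Birc5 and Cdca8, the groups overlapped because KO replicate 2 lay inside the range of WT.

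Shugoshins protect centromeric cohesin so that sister chromatids stay together until anaphase. Sgol1 was at 0.208, 0.303 and 0.948 FPKM in WT and 3.74, 0.101 and 3.08 FPKM in KO (log2 difference 0.93, SE 0.56, adjusted p = 0.448). It was the only member in which KO replicate 1 was the highest library, and KO replicate 2 was its lowest. Sgol2 was at 0.215, 0.159 and 1.15 FPKM in WT and 4.69, 0.404 and 7.18 FPKM in KO (log2 difference 1.48, SE 0.65, adjusted p = 0.340), with KO replicate 2 between WT replicates 1 and 3. Neither passed the test with all libraries, and both passed without KO replicate 2, with log2 differences of 1.60 and 2.24 (adjusted p = 0.0443 and 0.0335). Their WT means were under 1 FPKM (0.486 and 0.507), so they passed the filter only through the KO libraries.

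Each KO library was also set against WT replicate 3, the highest WT library for 40 of the 41 genes, by role group. KO replicates 1 and 3 were the top pair of libraries for 37 of the 41, so ratios above 1 in them follow from that order. In KO replicate 1 the median ratio to WT replicate 3 was 1.57 for the centromere network (0.811 to 3.28), 2.04 for the checkpoint (1.01 to 4.82), 2.44 for the outer kinetochore, 3.74 for the passenger complex (2.51 to 5.18) and 4.02 for the 2 shugoshins, and Cenpa alone was at 4.45. In KO replicate 3 the values were 2.11, 3.41, 3.13, 6.62, 4.76 and 7.07 in the same order. In KO replicate 2 they were all below 1, at 0.529, 0.349, 0.370, 0.228, 0.229 and 0.929 in that order. Over 10901 tested loci with a value above 0 in WT replicate 3 the medians were 1.07 for KO replicates 1 and 3. For KO replicate 2 that median was 1.10. The ratios overlap between roles and rest on single libraries, and no test of the differences was made.

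**Figure D4:**
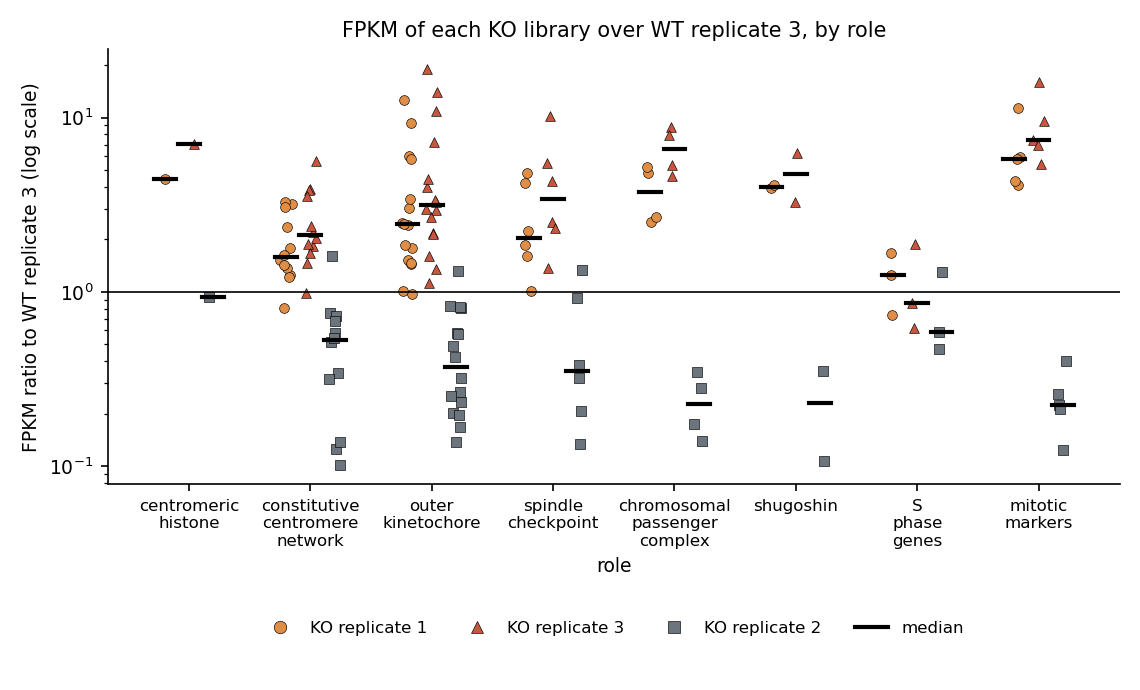
FPKM of KO replicates 1, 3 and 2 divided by FPKM of WT replicate 3, on a log axis, for each gene by role, beside 3 S phase genes and 5 mitotic markers; bars are medians. KO replicate 1 lies above 1 for 39 of 41 members and KO replicate 3 for 40, the S phase genes lie between 0.617 and 1.89 in both, and KO replicate 2 lies below 1 for 38 of 41 members.

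Among 8 proliferation markers, KO replicates 1 and 3 were the top pair of libraries for 6, the exceptions being Pcna and Mcm2. Mki67, the usual marker of cycling cells, was at 1.82, 1.43 and 6.98 FPKM in WT and 41.6, 1.57 and 66.7 FPKM in KO. Ccnb1, the mitotic cyclin, was at 0.586, 0.210 and 1.98 FPKM in WT and 22.4, 0.244 and 31.5 FPKM in KO (log2 difference 2.46, SE 1.19, adjusted p = 0.370). Ccna2, the cyclin of S phase and G2, was at 1.70, 0.962 and 5.12 FPKM in WT and 29.6, 2.05 and 38.1 FPKM in KO (log2 difference 2.27, SE 0.98, adjusted p = 0.334). For all of these, WT replicate 3 was the highest WT library and KO replicate 2 was low. Over 5 mitotic markers (Mki67, Top2a, Ccnb1, Ccna2 and Cdk1) KO replicate 1 was a median of 5.79 times WT replicate 3 (4.07 to 11.3). Over Pcna, Mcm2 and Ccne1 it was 1.25 times (0.734 to 1.67). This division of the 8 markers was made for description, Ccna2 also serves S phase, and the difference was not tested. Pcna, the replication clamp, was at 19.0, 16.8 and 65.9 FPKM in WT and 82.0, 31.1 and 57.0 FPKM in KO, and Mcm2, of the replicative helicase, at 5.92, 3.22 and 18.9 and 13.9, 11.1 and 11.7 FPKM. WT replicate 3 exceeded KO replicates 2 and 3 for Pcna and all KO libraries for Mcm2. Ccne1, the cyclin of S phase entry, was at 1.06, 1.85 and 3.85 FPKM in WT and 6.43, 5.01 and 7.27 FPKM in KO (log2 difference 1.23, SE 0.32, adjusted p = 0.210). All KO libraries of Ccne1 lay above all WT libraries as deposited, as for 16.7% of all tested loci. Of the 8 markers, 0 passed the test by limma and 1 had an unadjusted p under 0.05, beside 11.2% of all tested loci. Without KO replicate 2, 4 passed, beside 1.8% of tested loci, and 1 of these 4, Ccnb1, was above the filter only through the KO libraries. The part of the number of dividing cells in the kinetochore values was not tested.

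Other genes of the pathway gave 0 calls among 25 tested, with a median log2 difference of 0.87. At an unadjusted p under 0.05 there were 6, all higher in KO, beside 11.2% of all tested loci. Without KO replicate 2, 7 passed, beside 1.8% of tested loci. The log2 difference was below 0 for 2 of the 25, named after their values were seen. Hjurp, the chaperone that loads CENP-A, was at 4.25, 3.39 and 2.82 FPKM in WT and 3.78, 1.12 and 5.69 FPKM in KO (log2 difference -0.13, SE 0.41, adjusted p = 0.896). Mad2l1bp, which encodes a protein that helps switch Mad2 off, was at 3.65, 3.66 and 4.46 FPKM in WT and 4.66, 2.82 and 2.88 FPKM in KO (log2 difference -0.17, SE 0.20, adjusted p = 0.695). In both the groups overlapped. Among 9 genes of centromere assembly, 0 passed and the median was 0.67. Mis18a, which licenses CENP-A loading, was at 1.53, 1.08 and 3.68 FPKM in WT and 7.97, 3.69 and 10.8 FPKM in KO (log2 difference 1.45, SE 0.42, adjusted p = 0.240). As deposited its KO libraries all exceeded WT, like those of 16.7% of all tested loci, and the closest pair was nearly equal. Apitd1, which encodes the histone-fold protein CENP-S, was at 0.610, 0.305 and 1.62 FPKM in WT and 2.14, 1.30 and 3.65 FPKM in KO (log2 difference 0.87, SE 0.35, adjusted p = 0.318). Itgb3bp, which encodes CENP-R, was at 1.01, 0.961 and 1.59 FPKM in WT and 2.19, 1.60 and 2.22 FPKM in KO (log2 difference 0.46, SE 0.19, adjusted p = 0.327).

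Among 8 other kinetochore proteins, 0 passed and the median was 0.72. Spdl1, which recruits dynein to kinetochores, was at 0.537, 0.320 and 1.84 FPKM in WT and 6.51, 1.04 and 11.9 FPKM in KO (log2 difference 1.70, SE 0.67, adjusted p = 0.314). Kif18a, a motor that limits chromosome swings, was at 0.0559, 0.210 and 0.718 FPKM in WT and 2.63, 0.435 and 2.58 FPKM in KO (log2 difference 1.03, SE 0.41, adjusted p = 0.315). Clasp1, a microtubule plus-end protein, was at 3.59, 3.24 and 3.26 FPKM in WT and 4.97, 3.78 and 4.90 FPKM in KO (log2 difference 0.34, SE 0.15, adjusted p = 0.334). All its KO libraries exceeded all WT libraries as deposited, as they did for 16.7% of all tested loci. Among 8 checkpoint partners and mitotic kinases, 0 passed and the median was 1.33. Espl1, the protease separase that cuts cohesin, was at 0.193, 0.276 and 0.571 FPKM in WT and 3.66, 0.335 and 4.54 FPKM in KO (log2 difference 1.28, SE 0.53, adjusted p = 0.325). Pttg1, its inhibitor securin, was at 0.990, 0.298 and 4.55 FPKM in WT and 24.9, 1.44 and 40.5 FPKM in KO (log2 difference 2.51, SE 1.09, adjusted p = 0.335). Cdc20, the activator that the checkpoint holds back, was at 2.30, 0.981 and 3.95 FPKM in WT and 31.8, 1.63 and 73.0 FPKM in KO (log2 difference 2.54, SE 1.15, adjusted p = 0.348). In these last 3 genes KO replicates 1 and 3 were the highest libraries and KO replicate 2 lay within the WT range.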

How the data were processed

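RNA sequencing of frozen liver at 40 h after hepatectomy was used, with 3 WT and 3 KO libraries. The authors deposited FPKM per gene locus and library, per the file headers, and because some cells hold a text status the unit of these deposited values is recorded as other. Tools in the submitters' processing notes are TopHat and edgeR, and builds are mm9 and mm10, with no role given. Of 23847 loci, 312 with the status LOWDATA in every library were dropped. The floor value of 0.001 was set to 0. Positions match mm10: 99.5% of 21252 symbols overlap the RefSeq locus of that name. FPKM divides by the library total, so abundant transcripts shift all others. How reads were divided among overlapping loci is not stated in the labels or headers.

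Loci with a mean of at least 1 FPKM were tested as log2(FPKM + 1) with limma 3.58.1 in R 4.3.3 (mean-variance trend, two-sided, Benjamini-Hochberg over all 10956 loci, called at an adjusted p under 0.05). Tables, motifs and figures were made with Python 3.11.15, pandas 2.3.3, numpy 2.4.6 and matplotlib 3.10.9. The fit was tested on simulated data with independent noise of equal size for every gene. The kinetochore genes vary together between libraries, so that test does not cover their spread. Relative depth came from the steps between values under 0.3 FPKM. The columns carry no batch, all naming 1 run.

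Every listed gene was described. Of the other pathway genes and proliferation markers, the 3 with the smallest p in each list were named, and Mki67, Pcna and Mcm2 were named after their values were seen. The genes, and the lists beside them, were chosen with earlier results of these data known. Same-numbered WT and KO libraries deviated together with correlations of -0.084, 0.155 and 0.163, which are not all above 0.1, so the numbers were not taken as pairs. Alternatives were other pseudocounts, filters, scalings and variance models, the replicate number as a block, and leaving out each library.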

Additional observations from a re-analysis of the deposited data

How the results depend on the processing

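Limma called 13 of all tested loci (2 higher and 11 lower in KO), and 6 with no filter on low values, 21 with at least 1 FPKM in at least 3 libraries, 47 (10 higher) with the replicate number as a block, and 0 to 242 with 1 library left out: 0 without WT replicate 1 (where 940 had an unadjusted p under 0.05), 2 without WT replicate 2, 3 without WT replicate 3, 11 without KO replicate 1, 242 without KO replicate 2 (197 higher) and 2 without KO replicate 3. Median-of-ratios rescaling gave 13 calls, all lower, and quantile normalization 14, all lower. The kinetochore genes had 0 calls by limma under each of these except without KO replicate 2 (0 to 13 over the libraries left out). Under the replicate block 34 of 40 had an unadjusted p under 0.05, beside 1656 of 10956 tested loci. The replicate numbers were not taken as pairs. The cause was not tested. Their median log2 difference relative to all tested loci was 0.98, between 0.98 and 1.40 under the other settings and between 0.60 (without KO replicate 3) and 1.66 (without KO replicate 2) with 1 library left out, beside a spread of library medians of 0.95. Of the log2 differences of the 40 tested genes over 14 alternatives, 539 kept their direction and their side of the threshold, 13 moved past it and 1 reversed: Cenpm, at -0.03 without WT replicate 2 and up to 1.69 without KO replicate 2. A gene under the filter of an alternative had no value there and is not in these counts. With 3 libraries per group and FPKM without counts, sampling error at low values is unknown.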
